A study of Homo sapiens with 9 samples.

Results

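The genes described here encode lysosomal enzymes and membrane proteins, with the cofactors of the enzymes and a pair of transcription factors of lysosomal genes. They were chosen as a list of 41 gene symbols, and a symbol was used where it had 1 locus in each of the deposited tables. That left 39 of 41 genes. In all, 36119 loci are listed in the knockout table and 35856 loci in the one of the treatments. GLB1, a beta-galactosidase, matched no locus, and NEU1, a sialidase, had 3 loci, so neither was used. By role the 39 genes are 6 cysteine proteases, 3 other proteases, 9 glycosidases, 4 sulfatases, 4 lipid hydrolases, 4 activators and lipid carriers, 2 phosphatases, 5 membrane proteins and 2 transcription factors.

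The lysosome is the acidic compartment in which proteins, sugar chains and lipids are broken down. Its hydrolases are made in the endoplasmic reticulum, tagged with mannose 6-phosphate in the Golgi and carried to the lysosome by receptors, while heavily glycosylated membrane proteins such as LAMP1 and LAMP2 line its inner face. TFEB and TFE3 are basic helix-loop-helix factors that bind a palindromic promoter element and switch on many lysosomal genes when nutrient signalling at the lysosome drops. In myeloid cells lysosomal hydrolases also fill the azurophil granules of neutrophils and the phagocytic compartments of macrophages.

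RNA was sequenced from NB4, an established line of human promyelocytic leukaemia. Its cells hold the PML-RARA fusion protein, and retinoic acid (RA) drives them towards granulocytes. The treatment table has 5 libraries, 1 for each exposure of 24 h. DMSO, the vehicle, is the control. MC_2580, an inhibitor of the histone demethylase LSD1 (encoded by KDM1A), has no dose in the labels. RA was given alone at 0.01 uM and at 1 uM, and the combination joins MC_2580 to the lower dose of RA. The knockout table holds 2 libraries of untreated NB4 cells with LSD1 knocked out (KO) and 2 of untreated wild-type (WT) cells. The labels do not say how the knockout was made or whether it is 1 clone, and the table gives both KO libraries the same cell name. They do not call the replicates separate cultures either, so a p-value here sets a difference against the spread of these libraries alone, which may be technical. The treatment comparisons set 1 library against 1, have no replicate check and carry no p-value.

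Levels are FPKM, fragments scaled by transcript length and library size. Total reads are unknown here. Relative depth, read off the steps between low values, ran from 0.730 to 0.892 of the DMSO library over the other treatment libraries and from 1.04 to 1.65 of WT 1 over the other libraries of the knockout table. Between 11974 and 13365 loci per library reached 1 FPKM. The summed level of 6 promyelocyte markers was 5663 FPKM in DMSO and 6933 in MC_2580. With RA it was 3611 at 0.01 uM, 3569 at 1 uM and 3461 in the combination. It was 5773 and 6500 in the KO and 5492 and 6142 in the WT libraries. MPO went from 5301 FPKM in DMSO to 2678, 2454 and 2873 in those libraries with RA. PRTN3 instead went from 178 to 762, 966 and 454, and CTSG from 58.6 to 10.3, 7.01 and 4.65. ELANE was at 0.24 FPKM or less in all 9 libraries. Of 12 granulocyte maturation markers, 10 had a value in every library. Their summed level was 82.4 FPKM in DMSO, 149 in MC_2580, 743 in RA 0.01 uM, 942 in RA 1 uM and 1999.9 in the combination, against 157 and 130 in the KO and 192 and 101 in the WT libraries. Of 11 matched monocyte and macrophage markers, 9 had a value in every library, with a summed level of 46.4, 49.1, 96.1, 100.5 and 192 FPKM in the same order of treatments, 58.3 and 49.8 in KO and 48.4 and 38.1 in WT. Within that list C1QB was at 0 in all 9 libraries, MSR1, CD163 and VCAN were below 0.1 FPKM in each, and FCN1 went from 9.72 FPKM in DMSO to 114 in the combination. Of 6 lymphoid markers MS4A1 was at 0 in all 9 libraries. Their summed level was 24.0, 32.8, 105, 116 and 165 FPKM over the treatments, 87.0 and 63.0 in KO and 51.1 and 30.3 in WT, mostly from NKG7 and, with RA, CD79A. HBB and PF4 of the erythroid and megakaryocyte list and KRT19 of the fibroblast and epithelial list were also at 0 throughout. The granulocyte, monocyte and lymphoid sums were highest and the promyelocyte sum was lowest in the combination. There the lysosomal genes below were also highest as a sum, and the part of these markers in those results was not tested. In a bulk sample, fewer cells of a type and less RNA per cell cannot be told apart.

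For 8 of the 39 genes the table's locus also covers other genes, so that reads of either could enter the value. These are CTSA (with NEURL2 and PLTP), CTSZ (TH1L), CD63 (RDH5), GLA (RPL36A), MANBA, SMPD1 (APBB1), LIPA (IFIT1, IFIT2, IFIT3 and others) and TFEB (PGC). Counts are therefore also given over the genes alone at their locus. A gene entered a comparison when it reached 1 FPKM in a library compared. The sulfatase SGSH (at most 0.19 FPKM) and the tartrate-resistant phosphatase ACP5 (0.77 FPKM in the combination and at most 0.13 elsewhere) did not. LGMN, an asparagine-specific cysteine protease, was at 0 to 0.04 FPKM in the treatment libraries and 0.81 to 1.04 FPKM in the knockout table, and entered no comparison of treatments or genotypes. That left 36 genes in the comparison of KO with WT and in most treatment comparisons. In those that use the library of MC_2580 alone, where SMPD1 has no value, 35 remained.

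Most of the list was well expressed. In DMSO, 36 of the 39 genes were at 1 FPKM or more, 24 at 10 or more and 3 at 100 or more. The combination had 29 genes at 10 FPKM or more and 10 at 100 or more. The summed level of the list was 1540.4 FPKM in DMSO, 1751 in MC_2580, 2524 in RA 0.01 uM, 2757 in RA 1 uM and 3716 in the combination. By mean over the treatment libraries the highest genes were PSAP (300.6 FPKM), CTSC (255), CTSD (242), GRN (193) and CTSZ (170), and over the knockout table CTSC (256), PSAP (198), GRN (140.1), CTSH (128) and CD63 (106). Levels of different genes are set side by side here because FPKM is scaled to length.

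Each treatment comparison was taken as a difference on the scale of log2(FPKM + 1), which understates the change of genes with low levels, and a gene was counted as higher or lower at 2-fold. With MC_2580 against DMSO, 0 of 35 genes were higher and 0 were lower, against 0.741% and 0.0104% of the 9584 protein-coding genes compared, with a median of 0.15 for the list and -0.02 for those genes. RA at 0.01 uM against DMSO had 5 of 36 genes higher (CTSZ, CTSD, SMPD1, TPP1 and GUSB) and 1 lower (CTSH). In that comparison 4.87% of 9705 protein-coding genes passed 2-fold upwards and 2.78% downwards, and the medians were 0.29 and -0.06. RA at 1 uM had 9 higher, the same 5 with CTSS, GRN, NPC2 and TFEB, and again CTSH lower, against backgrounds of 6.5% and 2.7%, and medians of 0.46 and -0.03.

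The combination against DMSO had 12 of 36 genes higher, which is 33.3%, and 0 lower. The background was 9.36% higher and 3.42% lower of 9894 protein-coding genes, and the medians were 0.59 for the list and -0.02 for all. Without the genes that share a locus the counts of higher genes were 3 of 28 with RA at 0.01 uM, 6 of 28 with RA at 1 uM and 9 of 28 with the combination. Leaving those genes out brought the median for RA at 0.01 uM down to 0.12 and that for RA at 1 uM to 0.27, and left that for the combination at 0.54. For scale, between the libraries of 1 genotype the same 2-fold rule marked 2 of 36 genes between the WT libraries (NPC2 and ARSB), where it marked 3.78% of protein-coding genes. Between the KO libraries, where LGMN also reached the filter, it marked 1 of 37 (ARSB) against a background of 3.42%.

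**Figure D1:**
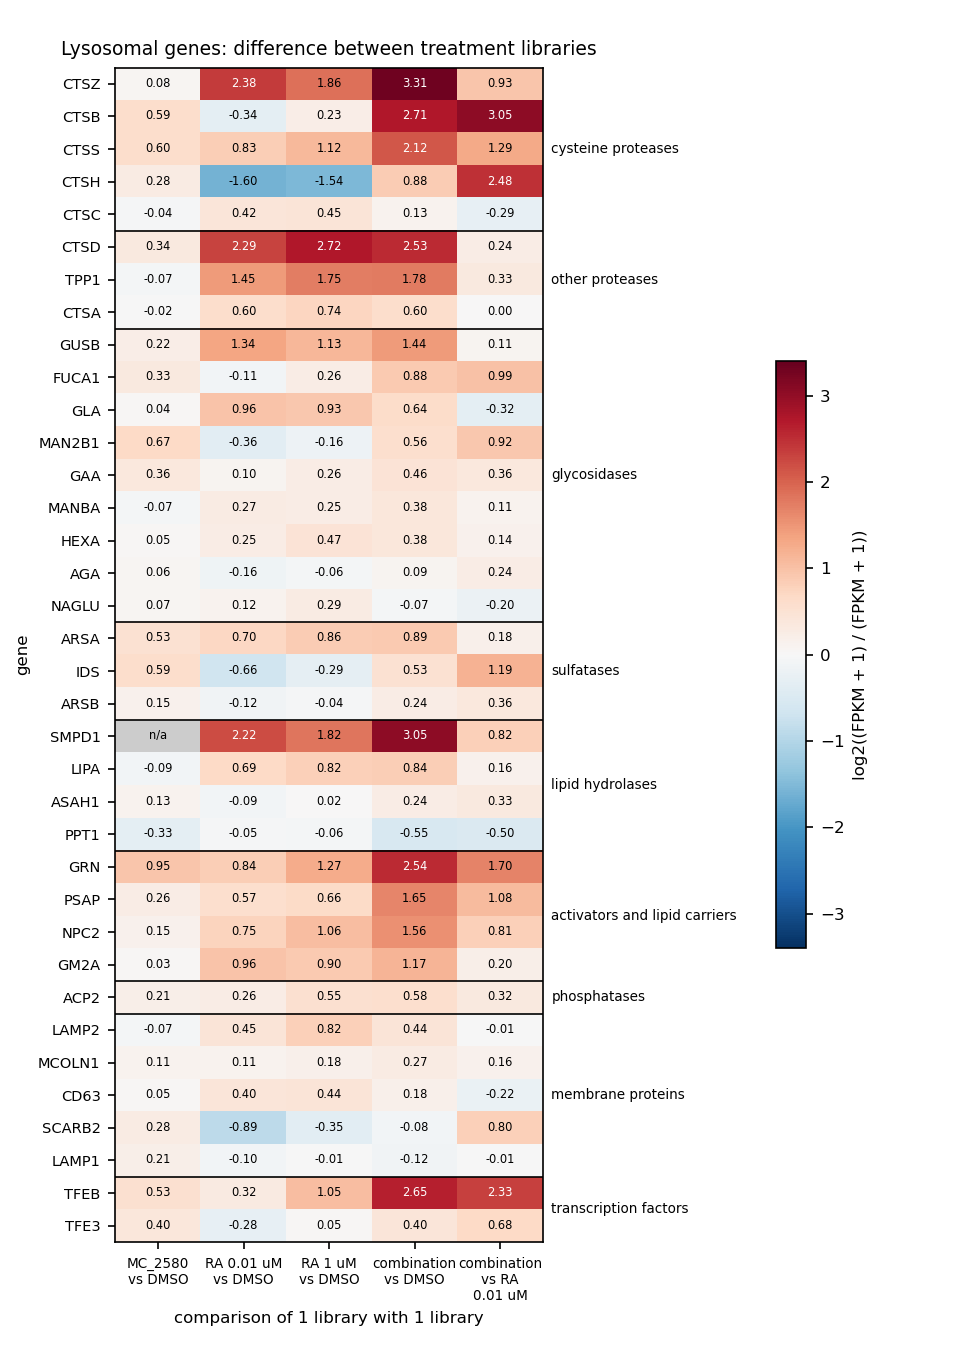
Difference between treatment libraries for the 36 lysosomal genes that reached 1 FPKM, in log2((FPKM + 1)/(FPKM + 1)), with genes in rows by role and 5 comparisons of 1 library with 1 library in columns. Red is higher and blue lower in the library named first, grey has no value, and "combination" is MC_2580 + RA 0.01 uM. The column for MC_2580 stays within 1 of 0 for all 35 genes, while 12 genes are above 1 in the combination.

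The tests deposited by the authors, which also set 1 library against 1, mark the same number of genes as the 2-fold rule or fewer. In the authors' deposited table, MC_2580 against DMSO has 0 lysosomal genes marked, against 0.721% of protein-coding genes tested. For RA at 0.01 uM against DMSO the authors' deposited table marks the same 5 higher and 1 lower genes as the 2-fold rule (background 5.84%). At 1 uM it marks 6 higher, those 5 with TFEB but not CTSS, GRN or NPC2, and CTSH lower (background 6.62%). For the combination against DMSO, the authors' deposited table marks 11 higher and 0 lower (background 8.65%). These are CTSB, CTSD, CTSS, CTSZ, GUSB, SMPD1, PSAP, TPP1, GRN, TFEB and the low ACP5. NPC2 and GM2A, higher by the 2-fold rule, are not marked.

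Of the transcription factors, TFEB (hg18 chr6:41759694-41823099, a locus it shares with PGC) was a low gene whose level was highest in the combination. It stood at 1.19 FPKM in DMSO, 2.17 in MC_2580, 1.73 in RA 0.01 uM, 3.54 in RA 1 uM and 12.7 in the combination. The combination was thus above every other library, and its difference from DMSO was 2.65 on the log2 scale, against 1.05 with RA at 1 uM, 0.53 with MC_2580 and 0.32 with RA at 0.01 uM. TFE3 (hg18 chrX:48772613-48787722), its relative, stayed within a narrow range, at 11.1, 14.9, 8.97, 11.5 and 15 FPKM in the same order. No difference of TFE3 from DMSO exceeded 0.40.

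The promoter element of these factors is shown because it is the sequence through which lysosomal genes are known to be switched on together. RefSeq promoters (build GRCh38.p14, 250 bases before to 50 after each gene start) matched 28 of the 39 genes, with 45 windows. Not searched were CTSB, CTSS, LAMP2, HEXA, MANBA, NAGLU, ARSA, SGSH, PSAP, ASAH1 and LGMN. Among these, CTSB, CTSS and PSAP were higher at 2-fold in the combination against DMSO, so whether they hold the element is unknown here. The 10-base palindrome GTCACGTGAC was found in 2 of 28 genes, GAA and MCOLN1, which is 7.14%, against 0.638% of 15843 protein-coding genes. Its 8-base core TCACGTGA was found in 4 of 28 (14.3%), those 2 with CTSA and LAMP1, against 1.65% of genes. The 6-base E-box CACGTG was found in 8 of 28 (28.6%), the 4 with ACP5, ARSB, CD63 and CTSD, against 10.9%. All 3 motifs read the same on both strands, and each longer one contains the shorter. Since the element is known from lysosomal genes, a higher share in this list is not a result of these libraries. The 4 windows with the 8-base core are printed 5′ to 3′ on the gene's strand, with that core in capitals and bases before the gene start only.
LAMP1 (chr13:113297180-113297238, plus strand): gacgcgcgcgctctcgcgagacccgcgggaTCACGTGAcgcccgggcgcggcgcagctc
CTSA (chr20:45891279-45891334, plus strand): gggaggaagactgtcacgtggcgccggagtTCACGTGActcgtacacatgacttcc
GAA (chr17:80101474-80101541, plus strand): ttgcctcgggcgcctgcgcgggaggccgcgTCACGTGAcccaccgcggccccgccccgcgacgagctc
MCOLN1 (chr19:7522552-7522619, plus strand): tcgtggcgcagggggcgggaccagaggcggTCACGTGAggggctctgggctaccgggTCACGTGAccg

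The core begins 29 bases before the gene start in LAMP1, 26 in CTSA and 77 in GAA, and MCOLN1 holds it at 2 places. A match describes the letters and is not a measured binding site. The 4 genes that hold the core in these windows had differences of -0.12 (LAMP1), 0.60 (CTSA), 0.46 (GAA) and 0.27 (MCOLN1) between the combination and DMSO, so none of them reached 2-fold. Of the other 4 genes with the E-box CACGTG, CTSD was 2.53 above DMSO, CD63 0.18 and ARSB 0.24, and ACP5 was below the filter. For comparison, the 100 bases before the start of 2 genes that were over 4-fold higher in the combination hold no CACGTG, and no inference about a factor is drawn from that.
GRN (chr17:44345202-44345301, plus strand): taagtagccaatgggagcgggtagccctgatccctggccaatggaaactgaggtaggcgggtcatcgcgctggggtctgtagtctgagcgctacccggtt
CTSZ (chr20:59007255-59007354, minus strand): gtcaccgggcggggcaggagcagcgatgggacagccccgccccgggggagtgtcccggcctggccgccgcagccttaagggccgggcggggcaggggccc

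Among the cysteine proteases, 3 of 5 compared were higher in the combination than in DMSO, with a median of 2.12 for the role, but they did so by different routes. CTSB, cathepsin B, which cuts inside proteins and trims dipeptides from their C-terminal ends, was at 20.2 FPKM in DMSO, 30.9 in MC_2580, 15.8 in RA 0.01 uM, 23.9 in RA 1 uM and 138 in the combination. Its other libraries lay between 15.8 and 30.9 FPKM and the combination stood apart, 2.71 above DMSO and 3.05 above RA at 0.01 uM alone. CTSH, cathepsin H, an aminopeptidase (hg18 chr15:77001147-77024475), was at 65.7 FPKM in DMSO, 80.2 in MC_2580, 21.0 in RA 0.01 uM, 22 in RA 1 uM and 121 in the combination. It was the only gene of the list lower at 2-fold with RA alone, by -1.60 at 0.01 uM and -1.54 at 1 uM, and in the combination it was above DMSO by 0.88.

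CTSZ, cathepsin Z, a carboxypeptidase whose locus (hg18 chr20:56989706-57015697) also covers TH1L, had 40.0 FPKM in DMSO, 42.2 in MC_2580, 212 in RA 0.01 uM, 148 in RA 1 uM and 406 in the combination. All 3 libraries with RA were above both without it, and its difference of 3.31 in the combination was the highest of the list. CTSS, cathepsin S, known for trimming the invariant chain of MHC class II, went from 13.6 FPKM in DMSO to 21.2 in MC_2580, 24.9 in RA 0.01 uM, 30.7 in RA 1 uM and 62.5 in the combination, with a difference of 2.12. CTSC, which activates the serine proteases of neutrophil granules, was among the highest genes everywhere and moved little, at 221, 215, 296, 302 and 241 FPKM.

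Among the 3 proteases of other classes, CTSD and TPP1 were high in every library with RA and differed little between RA alone and the combination. CTSD, cathepsin D, the main aspartic protease of the lysosome (hg18 chr11:1730561-1741798), stood at 61.3 FPKM in DMSO, 77.8 in MC_2580, 303 in RA 0.01 uM, 411 in RA 1 uM and 358 in the combination. TPP1, a tripeptidyl peptidase (hg18 chr11:6590573-6597268), stood at 64.3, 61.1, 177, 218 and 223 FPKM in the same order. For both genes the 3 libraries with RA lay above the 2 without it, and the combination differed from RA at 0.01 uM by only 0.24 for CTSD and 0.33 for TPP1. CTSA, a carboxypeptidase that also protects lysosomal glycosidases, shares its locus with NEURL2 and PLTP. Its 42.3, 41.6, 64.6, 71.4 and 64.9 FPKM gave a difference of at most 0.74 from DMSO.

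The activators and lipid carriers were the role in which every gene was higher at 2-fold in the combination, 4 of 4, with a median of 1.60. PSAP, the precursor of the saposins that present sphingolipids to their hydrolases (hg18 chr10:73246061-73281132), was at 179 FPKM in DMSO, 214 in MC_2580, 266 in RA 0.01 uM, 282 in RA 1 uM and 562 in the combination. GRN, progranulin, which is cut into granulins inside the lysosome (hg18 chr17:39778017-39785996), was at 73.8, 144, 133, 179 and 434 FPKM. The order of the libraries was nearly the same for both, with the combination well above the rest, by 1.65 (PSAP) and 2.54 (GRN) against DMSO. PSAP and GRN together made up 16.4% of the summed level of the list in DMSO and 26.8% in the combination.

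GRN had the largest difference of the list with MC_2580 alone, 0.95, just short of 2-fold. NPC2, a cholesterol carrier, went from 26.3 FPKM in DMSO to 29.3 in MC_2580, 44.8 in RA 0.01 uM, 55.8 in RA 1 uM and 79.4 in the combination, a difference of 1.56. GM2A, the activator that presents ganglioside GM2 to its hydrolase, was at 16.7, 17.1, 33.6, 32.0 and 38.9 FPKM. Its differences of 0.96 with RA at 0.01 uM, 0.90 at 1 uM and 1.17 in the combination lie on either side of the 2-fold line and are close to it.

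**Figure D2:**
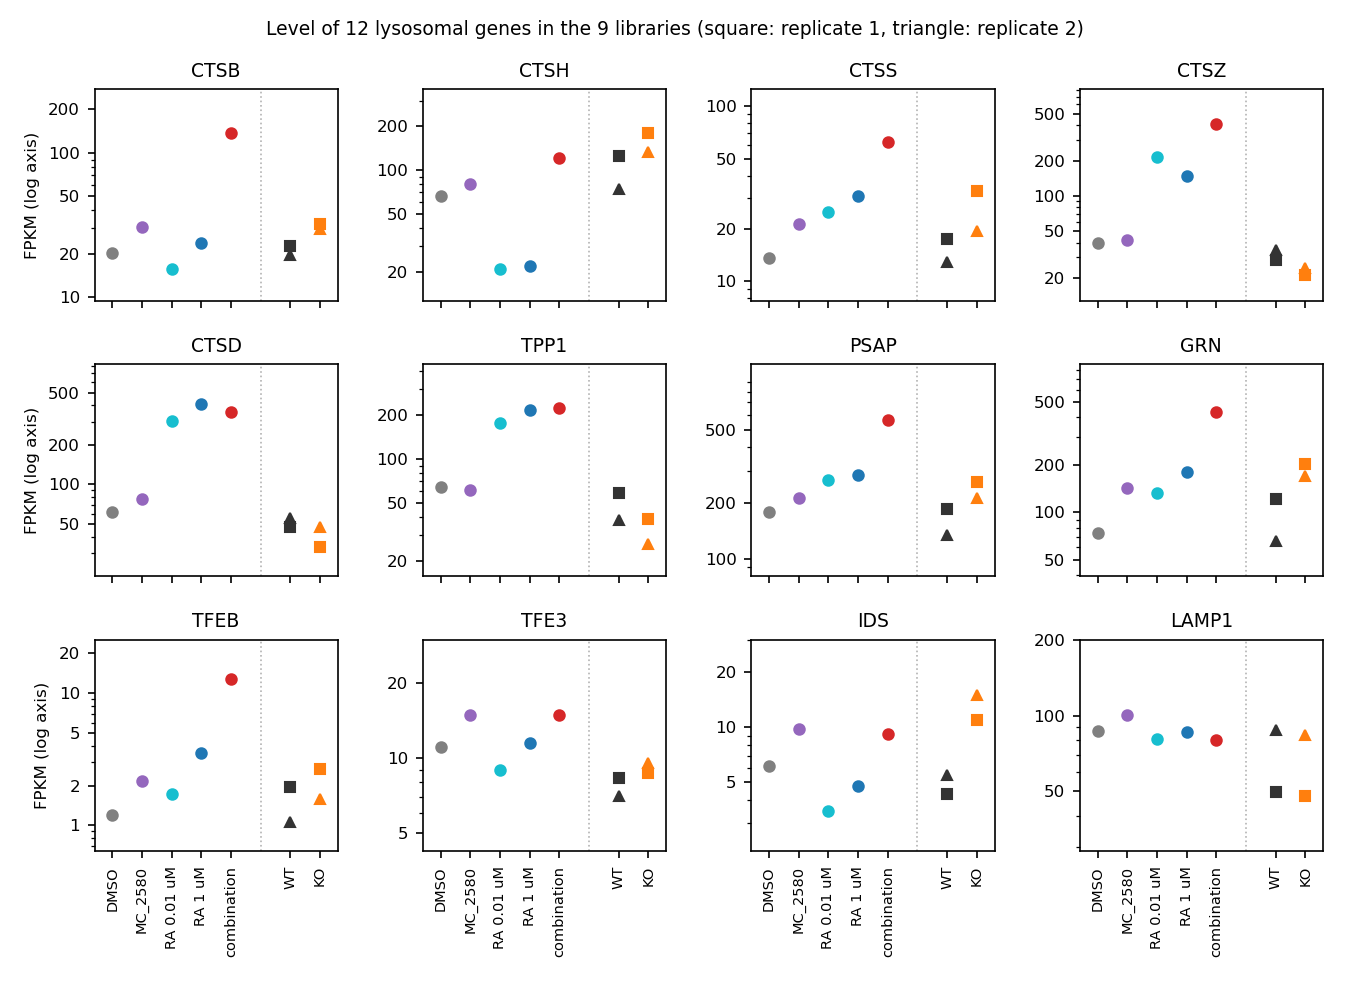
FPKM (log axis, with its own range in each panel) of 12 lysosomal genes in the 5 treatment libraries (circles) and in the WT and KO libraries (squares for replicate 1, triangles for replicate 2), which come from a separate table. CTSB, PSAP, GRN and TFEB stand apart in the combination, CTSD and TPP1 are high in all 3 libraries with RA, CTSH is low in both libraries with RA alone, and LAMP1 stays between 79.8 and 100.1 FPKM over the treatments.

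The lipid hydrolases did not move as a set, with 1 of 4 higher in the combination. SMPD1, acid sphingomyelinase, was at 1.26 FPKM in DMSO, 9.57 in RA 0.01 uM, 7.0 in RA 1 uM and 17.7 in the combination, a difference of 3.05, but its locus (hg18 chr11:6360165-6397220) also covers APBB1. LIPA, acid lipase, at 25.6, 24.1, 41.8, 46.0 and 46.8 FPKM, shares its locus with interferon-induced IFIT genes and reached 0.84. ASAH1, acid ceramidase, stayed between 14.8 and 18.9 FPKM. PPT1, which removes palmitate from proteins, was the lowest gene of the list in the combination at -0.55, from 89.8 FPKM in DMSO to 71.2 in MC_2580, 86.8 in RA 0.01 uM, 85.9 in RA 1 uM and 61.1 in the combination.

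Among the 9 glycosidases only GUSB was higher at 2-fold in the combination. GUSB, beta-glucuronidase (hg18 chr7:65063106-65084681), was at 67.0 FPKM in DMSO, 78.3 in MC_2580, 171 in RA 0.01 uM, 148 in RA 1 uM and 184 in the combination, so that the libraries with RA lay above the others. GLA, alpha-galactosidase, on a locus with the ribosomal protein gene RPL36A, was close behind with RA at 0.01 uM (0.96) and 1 uM (0.93), and at 0.64 in the combination. MAN2B1, alpha-mannosidase, showed another order, with 56.1 FPKM in DMSO, 89.9 in MC_2580, 43.5 in RA 0.01 uM, 50.1 in RA 1 uM and 83.4 in the combination. The 2 libraries with the inhibitor were the highest for MAN2B1, by 0.67 without RA and 0.56 with it against DMSO. FUCA1, a fucosidase, was 0.88 above DMSO in the combination and 0.99 above RA at 0.01 uM. GAA, HEXA, MANBA, NAGLU and AGA lay within 0.47 of DMSO in every treatment.

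On the log2(FPKM + 1) scale the sulfatases stayed under 2-fold against DMSO, 0 of 3 compared in each treatment. IDS, which removes sulfate from iduronate in heparan and dermatan sulfate (hg18 chrX:148368206-148394714), had the same order as MAN2B1, at 6.11 FPKM in DMSO, 9.74 in MC_2580, 3.49 in RA 0.01 uM, 4.80 in RA 1 uM and 9.24 in the combination. Both libraries with the inhibitor were above DMSO and both with RA alone below it, and the combination was 1.19 above RA at 0.01 uM. ARSA, which acts on sulfatide, was low, at 1.92 to 4.40 FPKM, with differences of 0.53 to 0.89. With a pseudocount of 0.1 ARSA passes 2-fold, at 1.12 with RA at 1 uM and 1.15 in the combination. ARSB, which acts on dermatan and chondroitin sulfate, stayed at 8.80 to 11.6 FPKM. The acid phosphatase ACP2 ranged from 7.76 to 12.1 FPKM.

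The membrane proteins had 0 of 5 at 2-fold in any of the treatment comparisons and a median of 0.18 in the combination. LAMP1 was at 86.7 FPKM in DMSO, 100.1 in MC_2580, 80.6 in RA 0.01 uM, 86.4 in RA 1 uM and 79.8 in the combination. LAMP2, which also serves in chaperone-mediated autophagy, was at 69.0, 65.5, 94.4, 122 and 94 FPKM, highest with RA at 1 uM by 0.82. CD63, a tetraspanin of late endosomes and azurophil granules, ranged from 124 to 169 FPKM, and the calcium channel MCOLN1 from 4.05 to 5.08. SCARB2, the receptor that carries glucocerebrosidase to the lysosome, was lowest with RA at 0.01 uM, at 3.18 FPKM against 6.73 in DMSO, a difference of -0.89, which passes 2-fold at -1.06 with a pseudocount of 0.1.

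The combination was also set against RA alone. Against RA at 0.01 uM, which differs from it only by the inhibitor, 7 of 36 genes were higher (CTSB 3.05, CTSH 2.48, TFEB 2.33, GRN 1.70, CTSS 1.29, IDS 1.19 and PSAP 1.08) and 0 were lower, where 4.61% and 0.358% of 9787 protein-coding genes were. The medians were 0.33 for the list and 0.03 for all. Against RA at 1 uM, which differs from it in the dose of RA as well as the inhibitor, 7 of 36 were again higher and 0 lower (background 3.35% and 0.481%), namely CTSB 2.49, CTSH 2.41, TFEB 1.59, CTSZ 1.45, GRN 1.27, SMPD1 1.22 and CTSS 1.00. PSAP, at 0.99, was just short of 2-fold. Without genes sharing a locus these counts are 6 and 4 of 28. Fewer are marked in the authors' deposited table, with CTSB, CTSH and TFEB against RA at 0.01 uM (background 3.29%) and those 3 with CTSZ against RA at 1 uM (background 2.61%). The lowest genes were PPT1 (-0.50 and -0.48 against the lower and the higher dose), GLA (-0.32 and -0.29) and CTSC (-0.29 and -0.32).

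A further comparison set the combination against the sum of the separate differences for MC_2580 and RA at 0.01 uM, where all terms share the DMSO library. On the log2 scale 3 of 35 genes lay above the sum by 2-fold or more, CTSB by 2.47, CTSH by 2.19 and TFEB by 1.79, and 0 lay below it. The background was 2.81% above and 0.365% below, and the median deviation was 0.18 for the list and 0.04 for protein-coding genes. The next genes were CTSZ (0.85), PSAP (0.82) and GRN (0.75), all under 2-fold. CTSD at -0.10, GUSB at -0.12 and TPP1 at 0.40 were close to the sum. In other terms, RA at 0.01 uM went with a difference of -0.34 for CTSB and -1.60 for CTSH in cells without the inhibitor, and of 2.13 and 0.59 in cells with it.

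**Figure D3:**
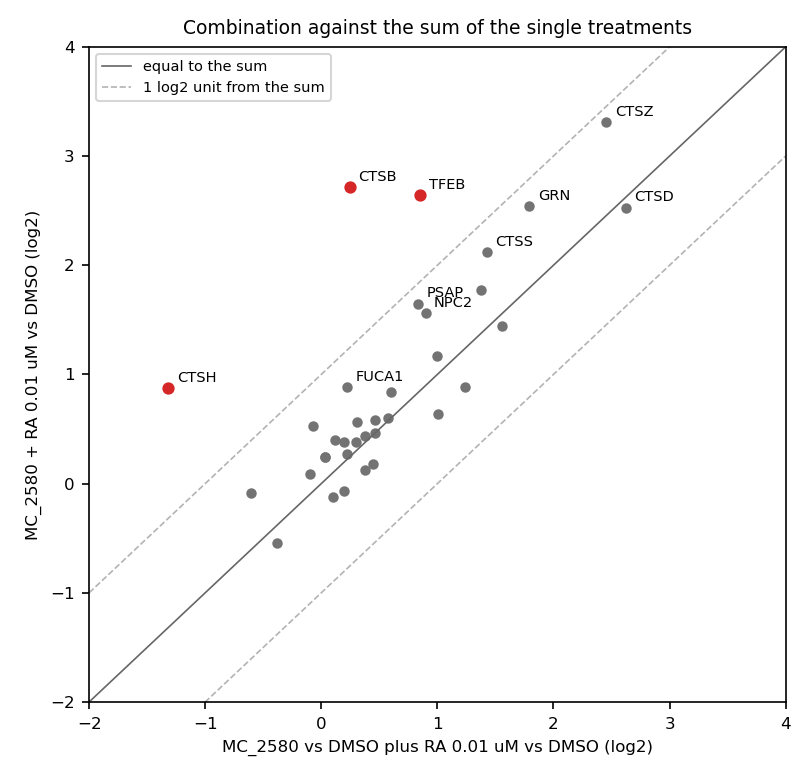
Log2 difference of MC_2580 + RA 0.01 uM from DMSO (vertical axis) against the sum of the differences of MC_2580 and RA 0.01 uM from DMSO (horizontal axis) for 35 lysosomal genes, 1 library a treatment. The solid line marks equality and the dashed lines 1 log2 unit; CTSB, CTSH and TFEB (red) lie above the upper dashed line and no gene lies below the lower one.

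Other genes of the pathway were taken as lists, and their difference from the 36 genes above was not tested. The proton pump that acidifies the lysosome had 0 of 15 genes at 2-fold in the combination against DMSO and a median of 0.16, and its farthest gene was ATP6V1B2 at 0.67. The genes that tag and deliver lysosomal enzymes had 0 of 10 and a median of 0.19. The farthest was SORT1, sortilin, the receptor that takes up progranulin, from 0.66 FPKM in DMSO to 1.72 in the combination (0.71). Nutrient signalling to TFEB had 0 of 15 and a median of -0.08, with RRAGD the farthest at -0.84. The autophagy list had 1 of 12 and a median of 0.25. The 1 gene was the receptor SQSTM1, at 23.7 FPKM in DMSO, 27.7 in MC_2580, 76.3 in RA 0.01 uM, 68.7 in RA 1 uM and 136 in the combination.

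Of the other lysosomal proteins, 3 of 23 were higher in the combination and 0 lower, with a median of 0.35, where 9.36% of protein-coding genes were higher, and 2 of them are described. LAPTM5, a membrane protein of blood cells, was at 70.9 FPKM in DMSO, 79.4 in MC_2580, 534 in RA 0.01 uM, 492 in RA 1 uM and 567 in the combination. SCPEP1, a carboxypeptidase, was at 43.5, 90.3, 73.6, 99.9 and 202 FPKM, and passed 2-fold with MC_2580 alone (1.03). Cystatins, the inhibitors of cysteine cathepsins, had 1 of 4 lower. That was CST7, cystatin F, at 93.4, 69.6, 12, 10.7 and 4.96 FPKM, low in every library with RA and lowest in the combination. CSTA, of the same list, was instead highest in the combination, at 66.4 FPKM against 41.1 in DMSO (0.68). A link between cystatin and cathepsin levels was not tested.

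**Figure D4:**
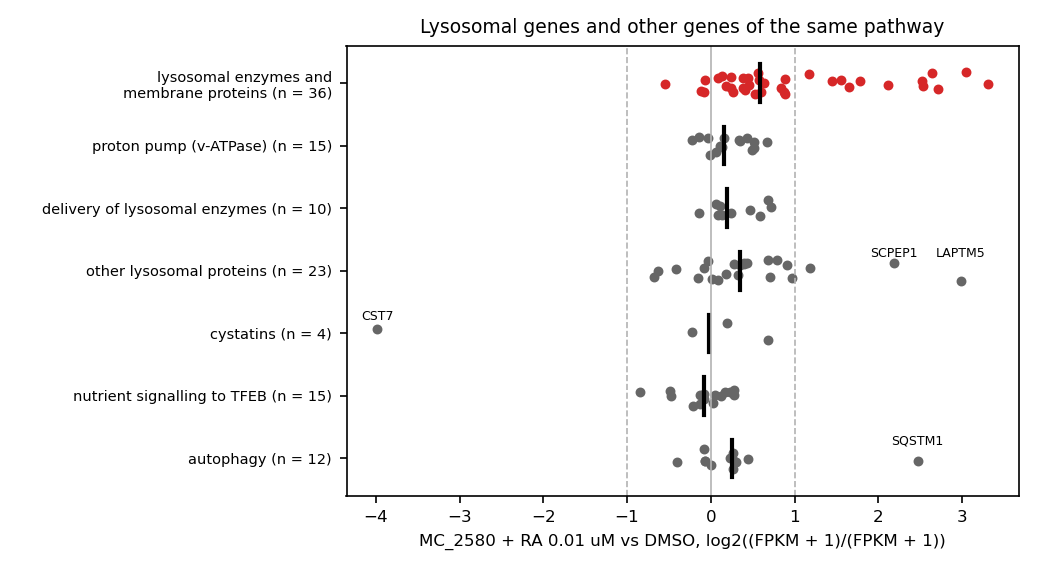
Log2 difference of MC_2580 + RA 0.01 uM from DMSO for the 36 lysosomal genes (red) and for genes of 6 related lists (grey), 1 point a gene, spread vertically only for legibility. Black bars mark medians and dashed lines 2-fold; the red points reach further to the right than those of the lists, apart from SQSTM1, SCPEP1 and LAPTM5.

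KO and WT cells were compared to ask how these genes stand in untreated cells labelled as having LSD1 knocked out. KDM1A, listed as AOF2 (hg18 chr1:23218533-23282771), was at 14 and 16.8 FPKM in the KO libraries and 49.8 and 66.6 in the WT libraries, so the groups did not overlap. The log2 difference was -1.84 (SE 0.23, n = 2 per group), with a limma adjusted p of 0.158. In the treatment table KDM1A was at 69.9 FPKM in DMSO, 66.9 in MC_2580, 52.0 in RA 0.01 uM, 51.0 in RA 1 uM and 50.8 in the combination.

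By limma with Benjamini-Hochberg adjustment over all loci, 0 of 36 lysosomal genes passed an adjusted p of 0.05, where 15 of 13157 loci (0.114%) did. At an unadjusted p under 0.05, limma marked 4 of the 36 (IDS, MAN2B1, CTSB and GRN), against 7.16% of loci. Within the 9968 protein-coding genes with 1 locus, 59 passed (0.592%), and still 0 of the 36. The median difference was 0.02 for the list and -0.02 for all loci. The lymphoid and monocyte marker sums were higher in both KO libraries than in both WT libraries, while the granulocyte and promyelocyte sums overlapped. In the lymphoid list NKG7 overlapped, at 62.7 and 37.5 FPKM in KO and 47.9 and 27.7 in WT. CD3G was at 12.9 and 13.6 FPKM in KO and 1.28 and 1.05 in WT, and CD79A at 7.87 and 8.77 against 1.79 and 1.43. CD2 was at 3.45 and 3.06 against 0.07 and 0.06. Of the 4 lymphoid markers tested, 0 passed the limma threshold. In the granulocyte list MMP9 was at 36.2 and 16.8 FPKM in KO and 115 and 39.3 in WT. S100A9, a calcium-binding protein of granulocytes, was at 39.9 and 55.9 FPKM in KO and 4.30 and 3.84 in WT. Of the 9 granulocyte markers tested, 4 had both KO libraries above both WT libraries, among them S100A9, S100A8 and ITGAM. Another 2, MMP9 and NCF4, had both KO libraries below. NCF4 was at 16.7 and 7.53 FPKM in KO and 43.0 and 30.2 in WT. Over all loci these shares were 17.9% above and 16.1% below. The part of these markers in the values of the lysosomal genes was not tested. In the authors' deposited table, 0 of these genes are marked for either pair of KO and WT libraries, where 0.959% and 0.778% of protein-coding genes are.

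Without a test, 9 genes had both KO libraries above both WT libraries and 9 had both below, against 17.9% and 16.1% of loci, and 18.7% and 16.9% of protein-coding genes. The 9 above were IDS, GRN, MAN2B1, CTSS, CTSH, PSAP, CTSB, SCARB2 and TFE3. The 9 below were SMPD1, CTSA, CD63, CTSZ, GUSB, CTSD, PPT1, NAGLU and ARSA. For ARSA the groups all but touched, at 2.38118 FPKM in KO 1 and 2.38122 in WT 2. CTSD was also close, at 46.99 FPKM in KO 2 and 47.08 in WT 1.

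IDS had the largest difference and the lowest p of the list. It was at 11 and 15.1 FPKM in KO and 4.30 and 5.45 in WT, a log2 difference of 1.25 (SE 0.23) with a limma adjusted p of 0.351. GRN was at 203 and 170.3 FPKM in KO and 121 and 65.6 in WT, a difference of 1.05 (SE 0.37) with a limma adjusted p of 0.691. The WT libraries themselves differed for GRN by 0.88, close to the difference between genotypes. MAN2B1 was at 63.3 and 78.9 FPKM in KO and 39.6 and 43.3 in WT, a difference of 0.76 (SE 0.20) with a limma adjusted p of 0.532.

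CTSB, the gene farthest above the sum in the combination, was at 32.0 and 29.6 FPKM in KO and 22.5 and 19.8 in WT. Its difference was 0.52 (SE 0.16) with a limma adjusted p of 0.641. CTSH was at 180 and 132 FPKM in KO and 125 and 74.4 in WT, a difference of 0.67 (SE 0.35). For CTSS the KO libraries had 32.6 and 19.5 FPKM and the WT libraries 17.4 and 12.9, a difference of 0.71 (SE 0.33), and for PSAP 259 and 212 against 186 and 135, a difference of 0.56 (SE 0.26). In all of these both KO libraries were above both WT libraries. For CTSH and CTSS the gap between libraries of 1 genotype was about as wide as the difference between genotypes. It was 0.74 between the WT libraries for CTSH and 0.72 between the KO libraries for CTSS. In the other genotype it was 0.44 for CTSH and 0.41 for CTSS. In each case replicate 1 was above replicate 2, so the gap ran the same way in both genotypes, though the labels state no pairing. TFEB overlapped between the groups, at 2.69 and 1.57 FPKM in KO and 1.97 and 1.06 in WT, while TFE3 was at 8.75 and 9.59 in KO and 8.34 and 7.04 in WT, a difference of 0.23 (SE 0.17).

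CTSD, CTSZ and GUSB, higher at 2-fold with RA in the treatment table, had both KO libraries below both WT libraries without passing the threshold. CTSD was at 33.4 and 47.0 FPKM in KO and 47.1 and 55.5 in WT, a difference of -0.36 (SE 0.25), and CTSZ at 21.3 and 24.4 against 28.6 and 34.8, a difference of -0.45 (SE 0.19). GUSB was at 37.5 and 39.1 FPKM in KO and 53.4 and 46.6 in WT. TPP1 overlapped, at 38.9 and 26.2 FPKM in KO and 58.1 and 37.8 in WT. The lowest differences of the list were SMPD1 at -0.59, from 1.11 and 0.66 FPKM in KO and 2.50 and 1.29 in WT, and CTSA at -0.59, from 19.8 and 28.1 in KO and 30.5 and 42.2 in WT. CD63 was at 75.0 and 100.2 FPKM in KO and 111 and 139 in WT, a difference of -0.52 (SE 0.25). The limma adjusted p of these genes was 0.771 or more.

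**Figure D5:**
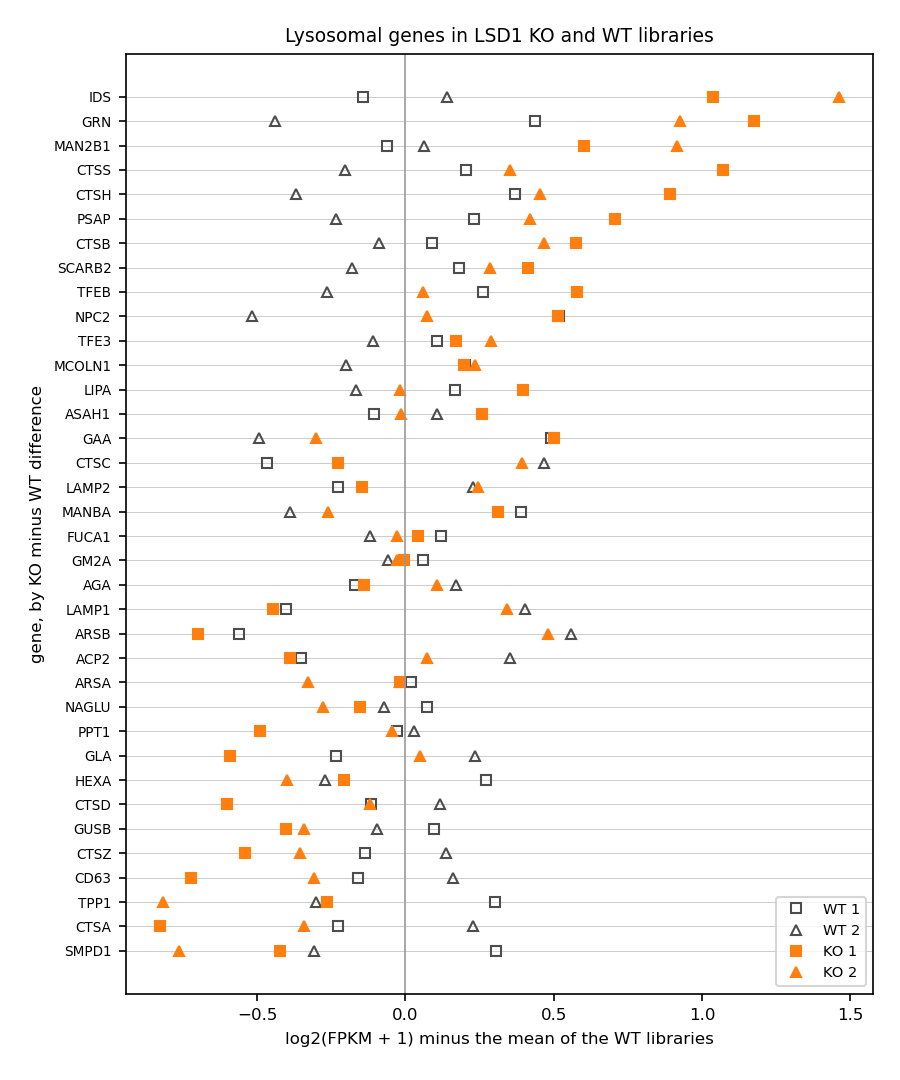
Level of 36 lysosomal genes in the KO (orange) and WT (open) libraries as log2(FPKM + 1) minus the mean of the WT libraries, ordered by the difference between genotypes; squares are replicate 1 and triangles replicate 2. IDS, at the top, is the gene whose KO libraries lie furthest from its WT libraries, and 9 genes have both KO libraries above both WT libraries and 9 both below.

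Other lists of the pathway also had 0 genes past the limma threshold between KO and WT. GNPTAB, the subunit of the enzyme that starts the mannose 6-phosphate tag, was the farthest gene of the delivery list, at 22 and 25.8 FPKM in KO and 9.17 and 11.8 in WT, a difference of 1.12 with a limma adjusted p of 0.331.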

How the data were processed

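Gene expression was measured by RNA sequencing of total RNA from 9 NB4 libraries, grouped from the sample labels. Per the labels' protocols the libraries were made with a TruSeq V2 kit, which is not stated to keep strand. Per the submitters' processing notes, the tools were TopHat 1.3.1 and TopHat2 2.0.10, CASAVA 1.8, Cuffdiff and Cufflinks, on build hg18, with no role or order; annotation and scaling between libraries are not given in the sources used. The values the authors deposited are FPKM, per the file headers. An offset of 0.001 in the knockout table was taken off, and values of failed tests in the treatment table, all at 0, were treated as missing; those of the knockout table, where values stand beside a failed test (KDM1A in the second pair), were kept. The authors also deposited a fold change (log2 in the knockout table, natural log in the treatment table), a test statistic (a score), and a p-value and q-value of 1 library against another, of which the significance calls alone were used. Deposited q-values of the treatment table exceed 1 and were handled as a score.

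RefSeq names matched 20669 loci of the knockout table and 20678 of the treatment table. For KO against WT, log2(FPKM + 1) was fitted in R 4.3.3 by limma 3.58.1 with a mean-variance trend. Loci entered where a group averaged 1 FPKM or more, and the two-sided test used Benjamini-Hochberg adjusted p at 0.05 over all loci. Treatment libraries were compared as log2((FPKM + 1)/(FPKM + 1)) where 1 of the libraries reached 1 FPKM, and called at 2-fold. Backgrounds are protein-coding genes with 1 locus unless stated. Read totals are unknown, so no counting interval was computed. The scripts were tested on simulated data. Other steps used numpy 2.4.6, pandas 2.3.3 and matplotlib 3.10.9 under Python 3.11.15.

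The genes and lists were chosen with earlier results of these data known. Genes named were those at 2-fold in a treatment comparison or past the limma threshold, the 5 highest and 5 lowest of at least 5 FPKM per comparison, the 5 highest by mean level, the genes skipped or below the filter, and of each pathway list those at 2-fold or the farthest from 0. GNPTAB in KO was named after its values were seen. Some genes of the pathway and marker lists are not reported here.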

Additional observations from a re-analysis of the deposited data

Results flagged for a closer look

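For 2 genes the effect of RA at 0.01 uM had opposite directions without and with the inhibitor, with 2-fold reached in at least 1 of the pair. CTSB differed by -0.34 on the log2 scale between RA and DMSO, and by 2.13 between the combination and MC_2580. CTSH differed by -1.60 and 0.59 in the same comparisons. Each value sets 1 library against 1, so the difference between them was not tested.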

How the results depend on the processing

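Of 193 alternative values for the counts and medians, 165 stayed within 1.5 times the reported count or within the spread of the median, and 28 moved. The KO median of the list, 0.02 as reported, ranged from -0.01 to 0.05 without each library in turn, so its sign was not kept. Loci past the limma threshold, 15 as reported, were 7 with a filter of 5 FPKM, 0 without a filter, 59 among protein-coding genes, 38 with a pseudocount of 0.1 and 0 to 0 without each library in turn, with 654 to 801 loci at an unadjusted p under 0.05 there. The authors' deposited table marks 117 and 96 loci for the KO and WT pairs. With the replicate block, 0 loci and 0 of 36 lysosomal genes passed, and 14 of the 36 were at an unadjusted p under 0.05, where 24.3% of loci were; the numbers are only shared, since the labels state no pairing and there are 2 pairs, whose deviations correlated at 0.21 over 13157 loci and 0.89 over the 36 genes. In every setting run 0 lysosomal genes passed. Leaving out each library gave 11 to 17 genes with KO wholly above WT and 11 to 15 wholly below, where 31.4% to 33.7% and 29.2% to 38.9% of loci were, since 1 library then stands for its group and is assumed to vary like the other group. At 1.5-fold, the genes higher were 5 with MC_2580 (2.68% of protein-coding genes), 13 with RA at 0.01 uM (9.41%; 3 lower, 7.94%), 16 with RA at 1 uM (12.2%), 14 for the combination against RA at 0.01 uM (10.4%) and 11 against RA at 1 uM (7.39%). RA at 0.01 uM had 2 lower with a pseudocount of 0.1. The authors' deposited table marks 3 and 4 higher for the combination against RA at 0.01 and 1 uM. Without genes sharing a locus, chosen after seeing the data, RA at 0.01 uM had 3 higher and a median of 0.12, RA at 1 uM a median of 0.27, and the combination 4 higher against RA at 1 uM. The cause of the changes was not tested. Single genes crossed the 2-fold line in 8 of 1343 cases (SCARB2, GM2A, GLA, ARSA, FUCA1 and PSAP). Depth is unknown, and 1 library per treatment limits every treatment difference.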
